A study of Mus musculus with 6 samples.

Results

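The genes described here are 36 macrophage and monocyte genes, listed by symbol, out of 55401 gene identifiers in a table of raw read counts from the tibialis anterior (TA) muscle of mice. All 36 symbols were found, all 36 had reads in every library and all 36 passed the filter on low counts, as did 17222 genes in all. The members were sorted by role into 6 recruitment and adhesion genes, 9 leukocyte and macrophage identity genes, 6 resident macrophage genes, 4 Fc receptor and ITAM adaptor genes (an ITAM is the tyrosine-based activation motif through which immune receptors signal), 3 genes of complement C1q and 8 phagocytic and lysosomal genes. The list was drawn up by gene name and not by a measured value, although earlier results from the same libraries were known at that time.

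Libraries depleted of ribosomal RNA were made from whole TA muscle of C57BL/6 mice of the genotype HSA-MCM-Bmal1-/-, 3 injected with AAV-GFP and 3 with AAV-RBM20. In this line a tamoxifen-inducible Cre under the human skeletal actin promoter deletes Bmal1, a transcription factor of the circadian clock, in skeletal muscle fibres, and the Cre is not directed to blood cells. All 6 samples carried this deletion: the mice were kept to an age of 12 to 16 weeks and were given tamoxifen at 2 mg per day for 5 days, the adeno-associated virus (AAV) was put into the muscle 4 weeks later, and the tissue was taken after a further 4 weeks. AAV-RBM20 delivers a tagged mouse Rbm20, a splicing factor of titin in striated muscle, under the general CMV promoter, and it was given at a higher dose than AAV-GFP. Vector dose and transgene therefore cannot be told apart in this comparison, and no uninjected muscle was analysed here. The labels do not say that the samples of a group came from separate animals, nor whether an animal gave samples to both groups. The p-values below therefore measure the spread between these samples.

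Monocytes leave the blood for injured or inflamed muscle through the chemokine receptor CCR2 and there become macrophages, which clear dead fibres and help repair. Healthy muscle also holds resident macrophages between its fibres, known by scavenger and endocytic receptors such as CD163, LYVE1, the folate receptor FOLR2 and the mannose receptor MRC1. Both kinds of cell take up particles through Fc and complement receptors and break them down in lysosomes.

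Each library held 41400132 to 54226618 reads assigned to genes. Levels are given as CPM, the reads of a gene scaled to a common library total, on library sizes scaled by edgeR's trimmed mean of M-values (TMM). Rbm20 itself was at 164 to 170.0 CPM with AAV-GFP and 406 to 545 CPM with AAV-RBM20. Bmal1, listed as Arntl, was at 31.0 to 38.1 and 24.5 to 27.6 CPM, but reads over the whole gene do not check the deletion. The defining genes of muscle fibres summed to 88380 to 96240 CPM with AAV-GFP and 55970 to 84810 CPM with AAV-RBM20. Both libraries numbered 3 stood apart from the other 4 libraries. Titin transcripts took 4.48% and 9.05% of their reads against 16.9% to 17.8% elsewhere, and mitochondrial transcripts 12.5% and 11.4% against 6.41% to 7.66%. Libraries that shared a replicate number also deviated together from their group means, with a correlation across genes of 0.42, 0.20 and 0.48 for the numbers 1, 2 and 3. Libraries crossed between the numbers 1 and 2 were also correlated, at 0.22 and 0.13, so the pairing within these numbers is uncertain. The replicate numbers are those of the sample titles, whereas the columns of the count table number the AAV-RBM20 libraries 4 to 6 and share no number with the AAV-GFP libraries. Results are therefore given without and with the replicate number as a block in the fit, and without the libraries numbered 3.

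The first question was whether muscle given AAV-RBM20 held more macrophage RNA than muscle given AAV-GFP. The summed level of the 36 genes was 68.1, 65.8 and 209.5 CPM in AAV-GFP replicates 1 to 3, and 157, 136 and 346 CPM in AAV-RBM20 replicates 1 to 3. The AAV-RBM20 library was the higher one within each replicate number, by 2.31-, 2.07- and 1.65-fold, but the groups overlapped because AAV-GFP replicate 3 stood above AAV-RBM20 replicates 1 and 2. AAV-GFP replicate 3 exceeded the other AAV-GFP libraries for 35 of the 36 genes, and AAV-RBM20 replicate 3 exceeded the other AAV-RBM20 libraries for 33. AAV-RBM20 replicates 1 and 2 both lay above AAV-GFP replicates 1 and 2 for 31 genes, and both below AAV-GFP replicate 3 for 25. In RNA from whole muscle, more cells of a type and more RNA per cell cannot be told apart.

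Without a block, none of the 36 genes passed an adjusted p of 0.05 in the quasi-likelihood test of edgeR, adjusted by Benjamini-Hochberg over all 17222 genes, and the lowest adjusted p of a member was 0.618. No gene of the whole table passed either (0.0% called), while 1360 genes had an unadjusted p under 0.05. Among the members 5 did so, Itgam, Ptprc, Ly86, Ms4a7 and Fcer1g, all with higher values in AAV-RBM20, a direction in which 4.08% of all genes tested had such a p. The log2 fold change was above 0 for 34 of the 36 members, against 51.3% of all genes tested. Cd163 and Lyve1 were the exceptions. The median log2 fold change was 1.01 over the members and 0.00897 over all genes tested. The members' mean log2 level varied between replicates of a group with an SD of 0.77.

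With the replicate number as a block, 5 members passed the adjusted threshold, all higher in AAV-RBM20: Ccr2, Ctss, Mpeg1, Cybb and Ptprc. In the same fit 15 genes were called higher in the whole table (0.0871%) and 10 lower. At an unadjusted p under 0.05, 29 members were higher (8.92% of all genes) and 0 were lower (9.92% of all genes). AAV-RBM20 was the higher library in 3 of 3 same-numbered pairs for 29 members, against 22.2% of all genes, and 28 members met both criteria. Both criteria rest on the same differences within the numbers, so meeting both adds no support. The members also rose and fell together across libraries, so these counts are not counts of independent results. The median of the members' differences was 1.07, 1.06 and 0.73 on the log2 scale within the numbers 1, 2 and 3. With both libraries numbered 3 left out and no block, 18 members passed the adjusted threshold (1.95% of all genes were called higher), the 5 named above among them, and the members' median log2 fold change was 1.11. DESeq2 with the block called 16 members higher (1.07% of all genes), again with all 5. With the block and both libraries of a number left out, 5 members were called without the numbers 1 (0.109% of all genes called higher), 10 without the numbers 2 (1.03%) and 22 without the numbers 3 (4.51%). These blocked fits were chosen after seeing the data. Like the fit without the libraries numbered 3 above, they rest on 2 libraries a group, so their counts are description only. Single libraries moved the size of the difference: without a block, the members' median log2 fold change was 0.43 when AAV-RBM20 replicate 3 was left out and 1.67 when AAV-GFP replicate 3 was left out.

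**Figure D1:**
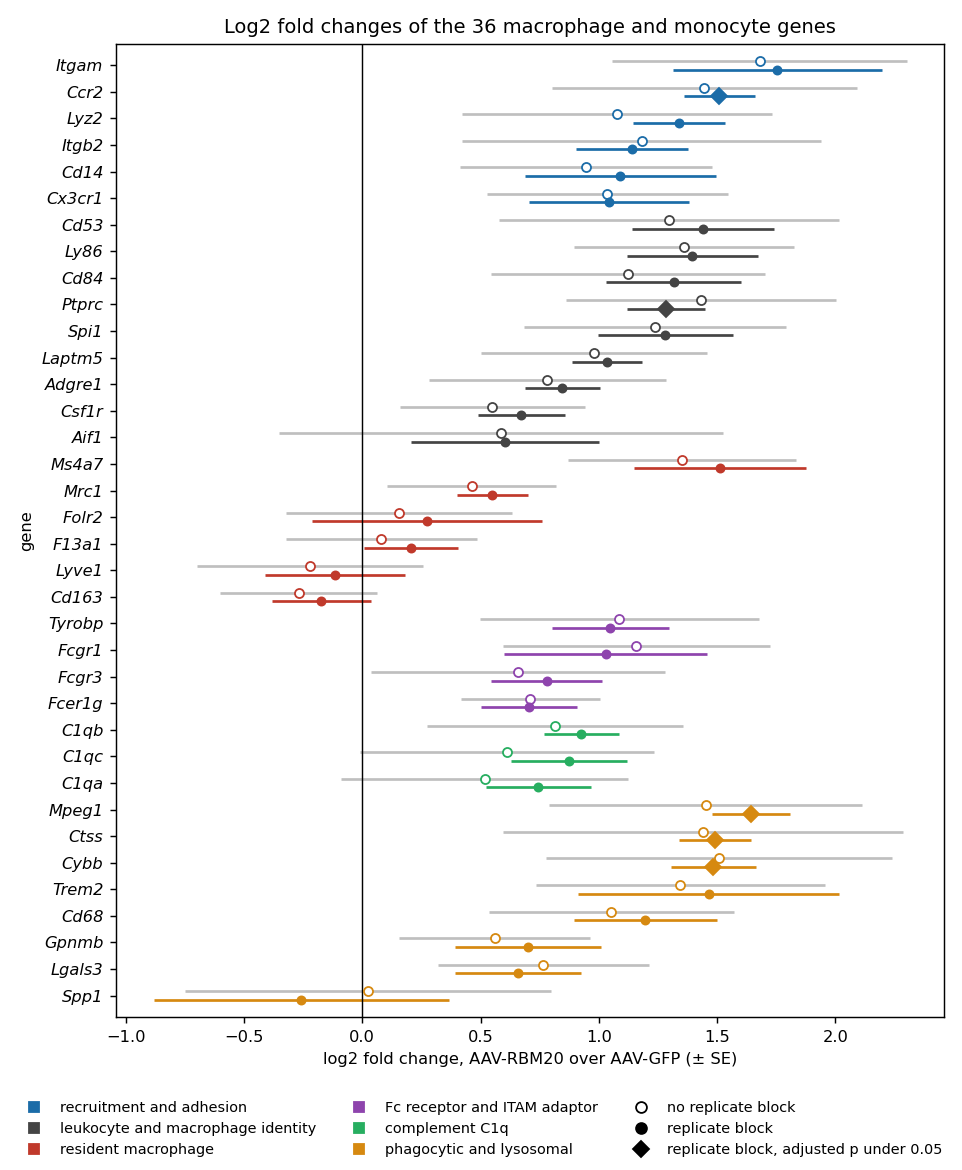
Log2 fold change of each of the 36 genes, AAV-RBM20 over AAV-GFP, with its standard error, without a replicate block (open circles, grey bars) and with it (filled symbols). Of the 36 genes 34 lie to the right of 0 without the block, the 5 diamonds mark adjusted p-values under 0.05 with it, and 5 of the 6 resident macrophage genes lie below 0.6.

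Recruitment and adhesion genes had higher values with AAV-RBM20 in 3 of 3 pairs for all 6 members, and their median log2 fold change was 1.13. Their summed level was 12.3, 11.8 and 52.5 CPM with AAV-GFP and 38.1, 34.6 and 96.1 CPM with AAV-RBM20, or 3.09-, 2.93- and 1.83-fold higher within the 3 pairs. In every library most of this sum was Lyz2, so the sum largely gives the level of that gene. None of the 6 was called without the block, and 1 was called with it.

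Ccr2 (chr9:124101950-124113557, plus strand, GRCm38) encodes the receptor for the chemokine CCL2 that draws monocytes out of the marrow and into tissue. It stood at 1.55, 1.34 and 5.36 CPM in AAV-GFP replicates 1 to 3 and at 4.80, 3.93 and 14.0 CPM in AAV-RBM20 replicates 1 to 3. Every AAV-RBM20 library was above its numbered partner, and AAV-GFP replicate 3 was above AAV-RBM20 replicates 1 and 2. The log2 fold change was 1.45 ± 0.65 (SE, adjusted p = 0.641, edgeR) without the block and 1.51 ± 0.15 (adjusted p = 0.0251) with it. Without the libraries numbered 3 the log2 fold change of Ccr2 was 1.61 (adjusted p = 0.00327).

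Itgam (chr7:128062640-128118491, plus strand), the alpha chain CD11b of complement receptor 3, was measured on few reads, from 3 in AAV-GFP replicate 1 to 52 in AAV-RBM20 replicate 3. Its level was 0.0738, 0.168 and 0.342 CPM with AAV-GFP and 0.440, 0.423 and 1.07 CPM with AAV-RBM20, so the groups did not overlap. Of the members, 4 were apart in this way, Itgam, Ly86, Ms4a7 and Fcer1g, all higher with AAV-RBM20, where 7.71% of all genes tested were, and 0 were apart in the lower direction, where 9.04% were. For each of the 4 the two-sided exact permutation p was 0.1, the smallest that 3 against 3 samples allow. Itgam shares its locus with a predicted gene, Gm49368, on the same strand, so its reads are uncertain. Its log2 fold change was 1.68 ± 0.62 (adjusted p = 0.618) and 1.76 ± 0.44 with the block (adjusted p = 0.133), by edgeR.

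Itgb2, the beta chain CD18 that pairs with CD11b, was at 0.689, 1.20 and 3.57 CPM with AAV-GFP and 2.04, 1.77 and 8.71 CPM with AAV-RBM20. Lyz2, the lysozyme of myeloid cells, was the most abundant member per length of transcript, with a mean of 14.9 CPM per kb in AAV-GFP and 31.5 CPM per kb in AAV-RBM20. Its CPM was 9.10, 8.31 and 41.3 with AAV-GFP and 28.6, 26.8 and 68.8 with AAV-RBM20. Both genes were higher within every pair and overlapped between groups because of AAV-GFP replicate 3. Lyz2 is a close copy of Lyz1, at 12 to 207 reads a library, and reads could be split between them. The fractalkine receptor gene Cx3cr1 and the lipopolysaccharide co-receptor gene Cd14 lay at 0.369 to 2.24 CPM and 0.168 to 1.34 CPM, with log2 fold changes of 1.04 ± 0.51 and 0.94 ± 0.53, neither called with or without the block.

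**Figure D2:**
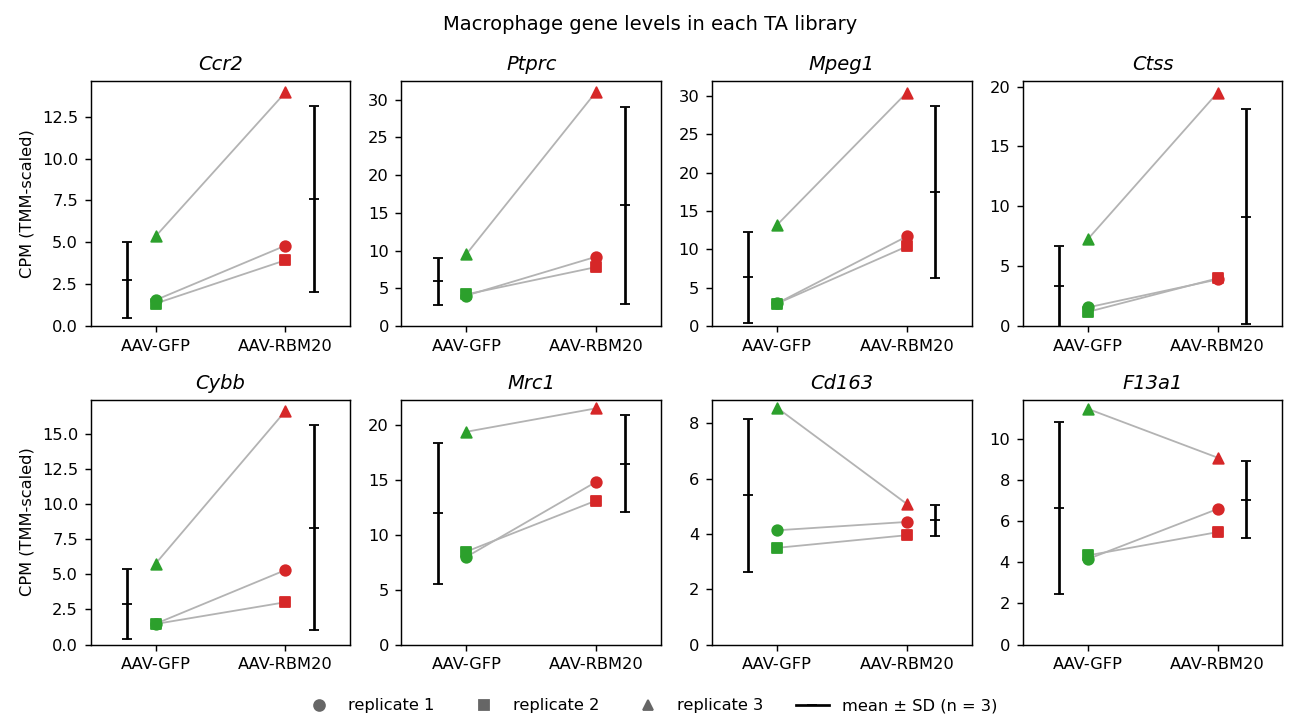
CPM of 8 genes in each library (circles, squares and triangles for replicates 1, 2 and 3), with grey lines joining libraries of the same number and black bars for the mean ± SD (n = 3). Ccr2, Ptprc, Mpeg1, Ctss, Cybb and Mrc1 are higher in AAV-RBM20 along all 3 lines, whereas Cd163 and F13a1 are lower along the line of replicate 3.

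Among the leukocyte and macrophage identity genes, all 9 had higher values with AAV-RBM20 in 3 of 3 pairs, and the median log2 fold change was 1.13. They summed to 17.4, 16.3 and 45.1 CPM with AAV-GFP and to 38.0, 33.7 and 84.4 CPM with AAV-RBM20. The replicate order was the same as for the recruitment genes, with replicate 3 highest in each group.

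Ptprc (chr1:138062861-138175708, minus strand), which encodes the phosphatase CD45 present on all leukocytes, was at 4.03, 4.19 and 9.52 CPM with AAV-GFP and 9.18, 7.81 and 31.1 CPM with AAV-RBM20. AAV-RBM20 replicate 3 stood far above all other libraries, and AAV-GFP replicate 3 above AAV-RBM20 replicates 1 and 2. Its log2 fold change was 1.43 ± 0.57 (adjusted p = 0.618) without the block and 1.28 ± 0.17 (adjusted p = 0.0479) with it, by edgeR. Because CD45 is common to all leukocytes, the markers of other blood cells are given here. The 8 T cell markers summed to 0.197 to 1.06 CPM with AAV-GFP and 1.14 to 6.28 CPM with AAV-RBM20, and 5 of the 8 were at 0 in at least 1 library. The 5 NK cell markers summed to 0.216 to 0.494 and 0.224 to 2.82 CPM, the 6 B and plasma cell markers to 1.65 to 12.8 and 2.04 to 5.85 CPM, the 8 neutrophil markers to 0.713 to 2.36 and 0.746 to 2.10 CPM with Ly6g at 0 in all libraries, and the 7 dendritic cell markers to 14.1 to 16.2 and 16.5 to 23.1 CPM. The T cell and dendritic cell sums did not overlap between the groups. For T cells the gap was narrow, with 0.197, 0.599 and 1.06 CPM against 1.14, 1.17 and 6.28 CPM, and 1 of the 8 markers passed the filter. Most of the dendritic sum was Zbtb46, and the other 6 genes summed to 1.75, 1.65 and 3.29 CPM against 2.62, 2.02 and 8.81 CPM, which overlapped. The part of these cells in the Ptprc result was not tested.

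Csf1r, the receptor for the growth factor that macrophages need to survive, was at 6.30, 6.11 and 16.4 CPM with AAV-GFP and 13.5, 11.0 and 17.9 CPM with AAV-RBM20. Laptm5, a lysosomal membrane protein of blood cells, was at 2.14, 2.47 and 6.16 CPM with AAV-GFP and 4.40, 5.77 and 11.2 CPM with AAV-RBM20. Within the pair numbered 3 the difference in Csf1r shrank to 0.12 on the log2 scale, against 1.09 and 0.84 in the other pairs, while that in Laptm5 was 0.86 against 1.03 and 1.21. The Csf1r locus overlaps Hmgxb3, and its log2 fold change of 0.55 ± 0.39 was the lowest of the identity genes. Ly86, which encodes the partner MD-1 of the receptor RP105, was at 0.443, 0.383 and 0.950 CPM with AAV-GFP and 1.16, 1.12 and 2.35 CPM with AAV-RBM20, with no overlap between groups and a log2 fold change of 1.36 ± 0.47 (adjusted p = 0.618, edgeR, and 0.095 with the block).

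The remaining identity genes were not called in either fit. Adgre1, which encodes the macrophage surface protein F4/80, had a log2 fold change of 0.78 ± 0.50, and Spi1, which encodes the myeloid transcription factor PU.1, had 1.24 ± 0.56. The tetraspanin gene Cd53 was at 1.30 ± 0.72 and Cd84, a receptor of the SLAM family, at 1.13 ± 0.58. Aif1, the calcium-binding IBA1 of macrophages, had the widest error of the identity genes, 0.59 ± 0.94, on 3 to 62 reads a library.

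Resident macrophage genes had the lowest median log2 fold change of the 6 role groups, 0.12, and 2 of the 6, Mrc1 and Ms4a7, were higher in 3 of 3 pairs. Their summed level was 17.6, 18.4 and 44.0 CPM with AAV-GFP and 29.5, 25.7 and 40.1 CPM with AAV-RBM20. The AAV-RBM20 library was 1.67- and 1.40-fold higher in the pairs numbered 1 and 2 and 0.911-fold in the pair numbered 3. None of the 6 passed the adjusted threshold in either fit.

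Mrc1, the mannose receptor CD206 that takes up glycoproteins, was at 8.00, 8.48 and 19.4 CPM with AAV-GFP and 14.9, 13.1 and 21.6 CPM with AAV-RBM20. Its log2 fold change was 0.46 ± 0.36 (adjusted p = 0.717, edgeR, and 0.149 with the block). Cd163, the scavenger receptor that clears haemoglobin bound to haptoglobin, was at 4.13, 3.50 and 8.57 CPM with AAV-GFP and 4.44, 3.96 and 5.09 CPM with AAV-RBM20. The AAV-RBM20 values of Cd163 all lay inside the AAV-GFP range, and its log2 fold change was -0.27 ± 0.33 without the block (adjusted p = 0.823) and -0.17 ± 0.21 with it (adjusted p = 0.672, edgeR). F13a1, the A chain of coagulation factor XIII, was at 4.16, 4.34 and 11.5 CPM with AAV-GFP and 6.60, 5.47 and 9.10 CPM with AAV-RBM20, and its log2 fold change was 0.080 ± 0.40. F13a1 overlaps Gm30489.

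Ms4a7, a membrane protein of macrophages, stood away from the other 5 in this group. It was at 0.394, 0.431 and 1.33 CPM with AAV-GFP and 1.98, 1.47 and 2.14 CPM with AAV-RBM20, so the groups did not overlap. Its log2 fold change was 1.35 ± 0.48 (adjusted p = 0.618, edgeR, and 0.123 with the block). Folr2, which lies over Gm10602, and Lyve1, a hyaluronan receptor, had log2 fold changes of 0.16 ± 0.48 and -0.22 ± 0.48. In the pair numbered 3, Cd163, Folr2, Lyve1 and F13a1 were all lower with AAV-RBM20, by log2 differences of -0.75, -0.91, -0.40 and -0.33, whereas in the pair numbered 1 all 4 were above 0.

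**Figure D3:**
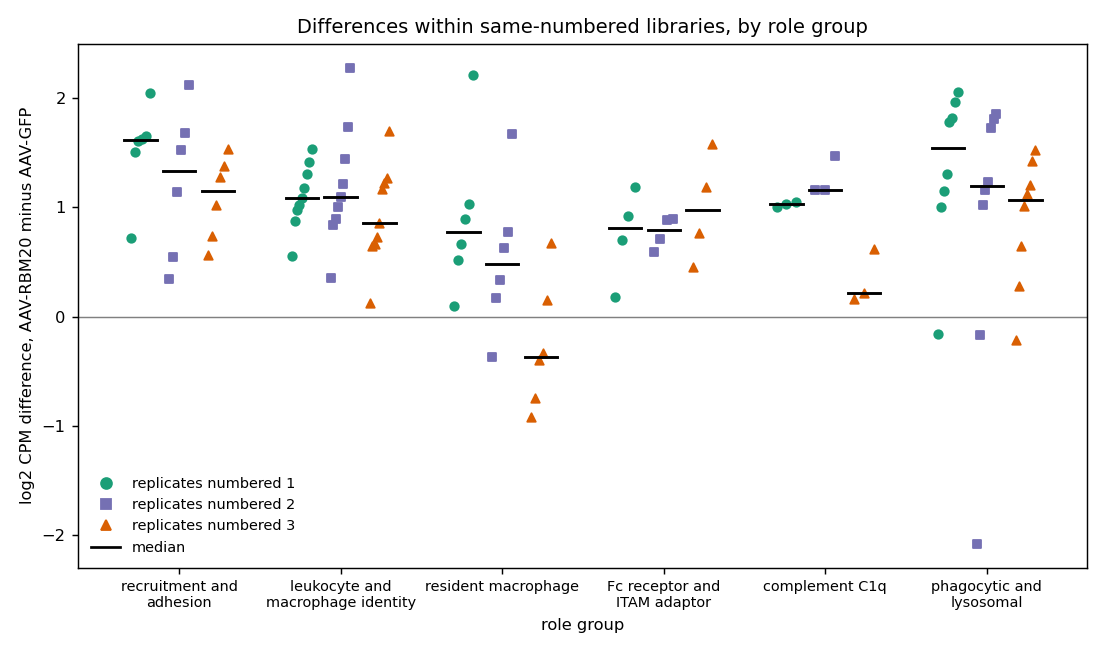
Log2 CPM difference, AAV-RBM20 minus AAV-GFP, within each replicate number, with 1 point per gene and a black line at the median of each role group. The medians lie above 0 in every group and pair but the resident macrophage genes in the pair numbered 3, where the median is -0.37.

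The level of resident genes was also set against that of the identity genes of the same library, a ratio that does not depend on how many reads the library gave to muscle fibres. The summed resident genes over the summed identity genes gave 1.01, 1.13 and 0.974 with AAV-GFP and 0.776, 0.763 and 0.475 with AAV-RBM20. The groups did not overlap, and the means were 1.04 ± 0.080 and 0.671 ± 0.17 (SD, n = 3). Over the recruitment and adhesion genes the ratio was 1.43, 1.56 and 0.838 with AAV-GFP and 0.774, 0.742 and 0.417 with AAV-RBM20, again with no overlap. The recruitment and adhesion sum was mostly Lyz2 in every library. By contrast, the recruitment, C1q and phagocytic sums over the identity sum overlapped between the groups.

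Single members were compared in the same way by dividing by Adgre1. Ccr2 over Adgre1 was 0.692, 0.757 and 0.946 with AAV-GFP and 1.16, 1.09 and 1.56 with AAV-RBM20. Of the 35 other members, 5 were higher relative to Adgre1 without overlap, Ccr2, Itgam, Ly86, Cd84 and Mpeg1, and 0.215% of all genes tested were so. Cd163 over Adgre1 was 1.85, 1.97 and 1.51 with AAV-GFP and 1.07, 1.10 and 0.567 with AAV-RBM20. Cd163 and F13a1 were the 2 members lower relative to Adgre1 without overlap, a share below the 10.4% of all genes tested that were lower, so this direction is not particular to these genes. Adgre1 was itself higher in each pair, and a gene at an even level falls in this ratio, as it does over the summed identity or recruitment genes.

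**Figure D4:**
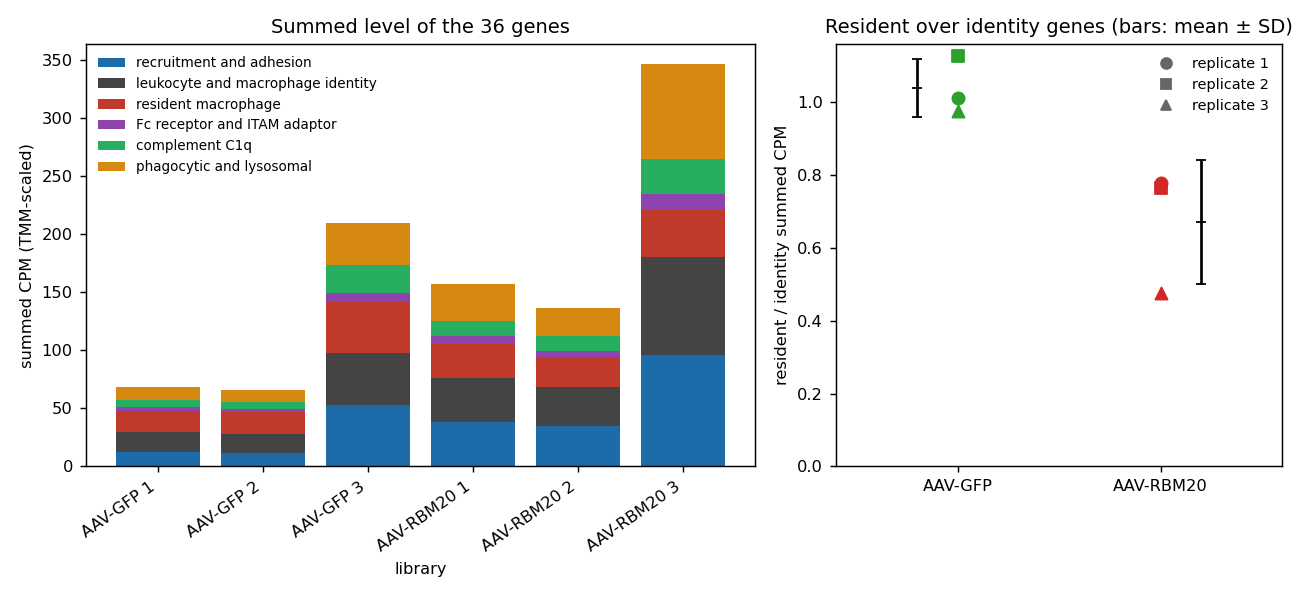
Left, CPM summed over the members of each role group in each library, stacked to the total of the 36 genes. Right, the summed resident genes over the summed identity genes in each library, with the mean ± SD (n = 3), which lies at 0.974 to 1.13 with AAV-GFP and at 0.475 to 0.776 with AAV-RBM20.

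Fc receptor and ITAM adaptor genes were higher with AAV-RBM20 in 3 of 3 pairs for all 4 members, with a median log2 fold change of 0.90, and none was called in either fit. Fcer1g (chr1:171229572-171234365, minus strand), the signalling gamma chain of Fc receptors, was at 1.43, 1.53 and 2.20 CPM with AAV-GFP and 2.35, 2.34 and 3.79 CPM with AAV-RBM20, without overlap. Its log2 fold change of 0.71 ± 0.29 had the smallest error of all 36 members without the block (adjusted p = 0.618, edgeR, and 0.157 with the block). Tyrobp, the adaptor DAP12 of TREM2 and related receptors, was at 0.812, 0.503 and 1.65 CPM with AAV-GFP and 1.58, 0.970 and 3.81 CPM with AAV-RBM20. Fcgr3, a low-affinity IgG receptor, was at 0.959, 0.910 and 3.57 CPM with AAV-GFP and 2.24, 1.52 and 4.90 CPM with AAV-RBM20. Both overlapped between the groups. Fcgr1, the high-affinity IgG receptor, was measured on 11 to 62 reads a library and had a log2 fold change of 1.16 ± 0.56. Near copies of Fcgr3 could share reads with it: Fcgr2b had 47 to 303 reads a library and Fcgr4 had 0 to 81.

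Complement C1q, the molecule that binds antibody and dying cells and starts the classical pathway, is made of chains from 3 genes that lie side by side on chromosome 4 and is produced largely by macrophages. C1qa was at 1.97, 1.63 and 7.71 CPM with AAV-GFP and 4.00, 3.68 and 8.63 CPM with AAV-RBM20. C1qb was at 2.61, 2.20 and 7.94 CPM against 5.37, 4.98 and 12.2 CPM, and C1qc at 1.99, 1.46 and 7.87 CPM against 4.18, 4.13 and 9.12 CPM. The 3 chains moved side by side: each was at least 1.00 higher on the log2 scale in the pairs numbered 1 and 2, and 0.16 to 0.62 higher in the pair numbered 3. Their log2 fold changes were 0.52 ± 0.61, 0.82 ± 0.54 and 0.61 ± 0.62, and none was called in either fit. With both libraries numbered 3 left out the sums were 6.57 and 5.30 CPM against 13.6 and 12.8 CPM.

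Phagocytic and lysosomal genes had the highest median log2 fold change of the 6 role groups, 1.20, and held 3 of the 5 genes called with the block. Their summed level was 10.7, 10.8 and 36.5 CPM with AAV-GFP and 31.6, 24.2 and 81.9 CPM with AAV-RBM20. Of the 8 members, 5 were higher in 3 of 3 pairs, and Lgals3, Spp1 and Gpnmb were not.

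Mpeg1 (chr19:12460779-12465283, plus strand), the pore-forming perforin-2 of macrophages, was at 2.95, 2.92 and 13.2 CPM with AAV-GFP and 11.7, 10.4 and 30.4 CPM with AAV-RBM20. Ctss (chr3:95526786-95556403, plus strand), the lysosomal protease cathepsin S that trims the invariant chain for antigen presentation, was at 1.55, 1.17 and 7.24 CPM with AAV-GFP and 3.89, 3.98 and 19.5 CPM with AAV-RBM20. Cybb (chrX:9435252-9487771, minus strand), the catalytic subunit of the phagocyte NADPH oxidase, was at 1.48, 1.46 and 5.76 CPM with AAV-GFP and 5.30, 3.01 and 16.6 CPM with AAV-RBM20. In all 3 genes AAV-RBM20 replicate 3 was the highest library and AAV-GFP replicate 3 lay above both remaining AAV-RBM20 libraries, so the groups overlapped. The log2 fold changes without the block were 1.45 ± 0.66 for Mpeg1, 1.44 ± 0.85 for Ctss and 1.51 ± 0.73 for Cybb, with adjusted p-values of 0.641, 0.658 and 0.642 (edgeR). With the block they were 1.64 ± 0.17, 1.49 ± 0.15 and 1.49 ± 0.18, with adjusted p-values of 0.0251, 0.0251 and 0.0399.

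Of the other phagocytic members, Cd68, a lysosomal glycoprotein, had a log2 fold change of 1.05 ± 0.52, and Trem2, a lipid-sensing receptor that signals through DAP12, had 1.35 ± 0.61 on 3 to 41 reads a library. Lgals3, which encodes galectin-3, and Gpnmb, a glycoprotein of lipid-laden macrophages, had 0.77 ± 0.45 and 0.56 ± 0.40. Spp1, the secreted osteopontin, had the largest error of the group after Ctss, 0.025 ± 0.77, and its sign changed between pairs, with log2 differences of -0.16, -2.08 and 1.12. It shares its locus and strand with Gm42793.

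The promoters of 4 genes are shown because the 3 phagocytic genes called with the block and the resident gene Cd163 lie at opposite ends of the range of differences. Each is read 5′ to 3′ on the strand of the gene, from 250 bases before to 50 bases after the RefSeq start (GRCm38.p6). Capitals mark GAGGAA or its reverse complement TTCCTC, a form of the sites that PU.1 binds. Other forms were not counted, so a window without capitals may still hold such a site. The positions are chr3:95526536-95526835 for Ctss, chrX:9469275-9469574 for Cybb, chr19:12460520-12460819 for Mpeg1 and chr6:124304401-124304700 for Cd163.
Ctss: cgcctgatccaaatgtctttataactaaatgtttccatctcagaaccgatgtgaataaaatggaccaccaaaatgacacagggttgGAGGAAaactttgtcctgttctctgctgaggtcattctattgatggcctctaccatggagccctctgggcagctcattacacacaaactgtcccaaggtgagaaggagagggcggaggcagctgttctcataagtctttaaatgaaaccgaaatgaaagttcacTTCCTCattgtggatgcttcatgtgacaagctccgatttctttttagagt
Cybb: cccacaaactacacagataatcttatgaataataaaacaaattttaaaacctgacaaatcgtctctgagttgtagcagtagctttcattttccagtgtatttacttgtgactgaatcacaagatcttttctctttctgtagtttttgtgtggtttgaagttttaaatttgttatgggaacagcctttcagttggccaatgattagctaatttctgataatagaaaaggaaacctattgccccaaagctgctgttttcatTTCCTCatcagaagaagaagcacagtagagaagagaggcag
Mpeg1: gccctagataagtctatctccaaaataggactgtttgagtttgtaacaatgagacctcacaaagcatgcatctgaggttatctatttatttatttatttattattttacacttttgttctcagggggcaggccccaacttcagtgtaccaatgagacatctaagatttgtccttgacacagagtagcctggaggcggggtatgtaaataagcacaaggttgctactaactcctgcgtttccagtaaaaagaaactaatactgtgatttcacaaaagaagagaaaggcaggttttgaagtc
Cd163: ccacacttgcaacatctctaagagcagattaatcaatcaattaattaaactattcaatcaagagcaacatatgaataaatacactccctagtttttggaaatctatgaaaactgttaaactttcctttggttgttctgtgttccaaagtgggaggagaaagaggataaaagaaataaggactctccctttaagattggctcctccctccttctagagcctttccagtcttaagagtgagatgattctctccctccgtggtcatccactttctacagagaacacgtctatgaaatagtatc
These letters occur 2 times in the Ctss window, 1 time in that of Cybb and 0 times in those of Mpeg1 and Cd163. RefSeq promoters on the chromosomes used matched 28 of the 36 members, and 18 of these 28 had the letters in at least 1 of their promoters. Counted by promoter, 20 of 34 windows of the members (58.8%) held the letters, against 28.3% of all 32851 promoters, a set from which no chromosome was left out. A match of letters describes the window and is not a measured binding site.

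Other genes of these pathways were read in the same fits, from lists that held no member. Of 72 such genes 61 were tested, and 49 had a log2 fold change above 0, against 51.3% of all genes tested. In 3 of 3 pairs 36 were higher, against 22.2% of all genes. These shares also stand beside the counts of the single lists below. None was called without the block. With the block 1 was called, Runx1, a transcription factor of blood cell development, and 0.0871% of all genes were called higher. Runx1 did not follow the libraries numbered 3. Which cells of the muscle gave the Runx1 reads was not tested. Runx1 was at 4.77, 6.01 and 5.95 CPM with AAV-GFP and 13.8, 12.4 and 13.6 CPM with AAV-RBM20, without overlap, and its log2 fold change was 1.25 ± 0.15 (adjusted p = 0.257) without the block and 1.26 ± 0.14 (adjusted p = 0.0271, edgeR) with it. Of the 8 myeloid transcription factors 4 had a log2 fold change above 0, and the most abundant, Maf, had -0.31 ± 0.13. At 259 to 294 CPM with AAV-GFP and 203 to 244 CPM with AAV-RBM20, Maf was lower without overlap. It stood above every member in every library, and which cells of the muscle gave the Maf reads was not tested.

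All 5 partners of Cybb in the NADPH oxidase were higher in 3 of 3 pairs (22.2% of all genes were), with a median log2 fold change of 0.72. Among them Cyba, the membrane subunit p22phox, was at 2.01 to 4.16 CPM with AAV-GFP and 3.21 to 5.05 CPM with AAV-RBM20, and Ncf1, the cytosolic p47phox, at 0.910 to 1.96 and 1.39 to 3.52 CPM. All 9 genes of ITAM signalling were also higher in 3 of 3 pairs, with a median of 0.64. The kinase gene Lyn and the lipid phosphatase gene Inpp5d, the most abundant of the 9, had log2 fold changes of 0.39 ± 0.14 and 0.50 ± 0.16. None of these 14 genes was called in either fit.

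As a list, the lysosomal enzymes did not follow the phagocytic members, and single genes went both ways. Of 12 such genes 7 had a log2 fold change above 0, with a median of 0.12, and 4 were higher in 3 of 3 pairs. Without overlap between the groups, 2 were higher (7.71% of all genes tested were) and 2 were lower (9.04% were). Lamp1, a lysosomal membrane protein, was at 328 to 379 CPM with AAV-GFP and 281 to 296 CPM with AAV-RBM20, and Ctsb, cathepsin B, at 187 to 210.2 and 209.5 to 232 CPM. Lamp1 and Ctsb stood above every member in every library, and which cells of the muscle gave the reads of the lysosomal enzymes was not tested. Of the 7 genes for uptake of dying cells 6 were tested and 2 were higher in 3 of 3 pairs. The 2 most abundant were Cd36, a fatty acid and lipoprotein receptor that is also made outside macrophages, with 0.0022 ± 0.18, and Gas6, a bridging ligand, with -0.11 ± 0.12.

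Of the ligands of member receptors 4 of 6 were tested, 3 had a log2 fold change above 0 and 2 were higher in 3 of 3 pairs. The most abundant, the growth factor genes Csf1 and Il34, both ligands of CSF1R, had log2 fold changes of 0.033 ± 0.13 and -0.034 ± 0.19. The 2 that were higher in every pair were Ccl2, the ligand of CCR2, and Cx3cl1, the ligand of CX3CR1. Ccl2 had 1.11 ± 0.83 on 1 to 45 reads a library, with overlap between the groups. Cx3cl1 had 0.57 ± 0.23 and no overlap between the groups. Both are named after their values were seen. Of the 9 activation products 4 were tested, and the most abundant, the nitric oxide synthase gene Nos2 and the growth factor gene Tgfb1, had 0.27 ± 0.42 and 0.64 ± 0.18. Of the 16 other myeloid genes 13 were tested and 10 were higher in 3 of 3 pairs, against 22.2% of all genes. Among these 10 were Sirpa, a receptor for CD47, with 0.52 ± 0.30 and Lcp1, the actin-bundling L-plastin, with 0.70 ± 0.57. None of the ligands, activation products, lysosomal enzymes, uptake genes or other myeloid genes was called in either fit.

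Markers of further cell types in the muscle are given as summed CPM because they varied beside the members. Markers of fibro-adipogenic cells summed to 489 to 1009 CPM with AAV-GFP and 824 to 1074 CPM with AAV-RBM20, and endothelial markers to 138 to 333 and 217 to 327 CPM. The 5 proliferation genes, of which 2 passed the filter, summed to 1.48 to 2.28 CPM with AAV-GFP and 2.44 to 8.09 CPM with AAV-RBM20, without overlap. The summed muscle fibre markers, given above, were lower in every AAV-RBM20 library than in every AAV-GFP library, but singly this held for 2 of the 6, Tnnt3 and Pvalb, and Myh1 was higher with AAV-RBM20 in 3 of 3 pairs. Sums of mast cell (5.22 to 8.82 and 4.74 to 9.88 CPM), erythroid (4.06 to 10.6 and 2.70 to 27.4 CPM), adipocyte (61.2 to 84.2 and 55.4 to 78.9 CPM) and Schwann cell markers (21.7 to 50.8 and 31.9 to 42.6 CPM) overlapped. The satellite cell and myoblast markers also overlapped as a sum (47.1 to 48.8 and 42.7 to 59.4 CPM), which was mostly Myod1, at 39.1 to 40.5 CPM with AAV-GFP and 31.0 to 32.9 CPM with AAV-RBM20. The embryonic and neonatal myosin genes of regenerating fibres, Myh3 and Myh8, lay higher with AAV-RBM20 without overlap. Myh3 was at 1.13, 1.44 and 0.646 CPM against 8.38, 2.54 and 1.87 CPM, and Myh8 at 1.87, 1.82 and 0.874 CPM against 10.4, 3.98 and 3.81 CPM, with log2 fold changes of 2.00 ± 0.59 and 2.00 ± 0.47. Myog, at 1.80 to 2.11 and 2.57 to 3.18 CPM, was also higher without overlap, and none of these markers was called in either fit. The part of the marker genes in the results for the 36 genes was not tested.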

How the data were processed

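RNA from 6 TA muscles was sequenced as stranded, ribosomal RNA-depleted libraries. HISAT2 (genome mm10) and HTSeq are the aligner and counter named by the authors, who deposited unnormalised read counts for each Ensembl identifier. Tool versions, the strand setting and the annotation release are not given in the sources used here, so reads of overlapping genes are uncertain. A second table, of DESeq2-normalised values, was not used. Groups and replicate numbers came from the labels. GENCODE M21 gave symbols for 55141 of 55401 identifiers.

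Counts were fitted with edgeR 4.0.16 (R 4.3.3) by the quasi-likelihood test, after filterByExpr (minimum count 10) and TMM scaling, with Benjamini-Hochberg adjustment over all 17222 genes kept and a threshold of 0.05. No covariate was used, and a fit blocked on replicate number was an alternative. The numbers, taken from the titles (the count table's columns run from 4 to 6 for AAV-RBM20), were treated as pairs. The reason was that the correlation of the deviations from group means exceeded 0.1 for each number (0.42, 0.20 and 0.48). It also exceeded 0.1 for AAV-GFP replicate 2 with AAV-RBM20 replicate 1 (0.22) and for AAV-GFP replicate 1 with AAV-RBM20 replicate 2 (0.13). This rule therefore does not separate the numbers 1 and 2, and it uses the same expression values that the block then fits. Other scalings and filters, DESeq2 1.42.0, limma-voom (limma 3.58.1) and leaving out libraries were further alternatives. CPM used TMM-scaled library sizes, log2 CPM a prior count of 2, and CPM per kb the merged exon length. Scripts were tested on simulated data. Depth was 41400132 to 54226618 counts a library.

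The members and lists were chosen with earlier results of these data known. Values in every library are given for members called with or without the block, members whose groups did not overlap and the 3 most abundant members of each role, while of each other list the genes called and the 2 most abundant are named, except for a gene not reported here.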

Additional observations from a re-analysis of the deposited data

How the results depend on the processing

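Each of the 36 genes was refitted under up to 21 alternatives, 748 values in all. Of these, 645 kept their direction and their side of the threshold, 76 kept their direction and passed the threshold and 27 changed sign. In the fit of all libraries without a block no member was called, so no call could be lost. The count of members past the threshold, 0 in the fit without a block, was 5 with the replicate block, 16 by DESeq2 with the replicate block and 18 with both libraries numbered 3 left out. With the replicate block and both libraries of one number left out, an alternative chosen after seeing the data, it was 5, 10 and 22 without the numbers 1, 2 and 3. Over all genes the count, also 0, was 8 without the low-count filter, 25 with the replicate block, 75 by DESeq2, 520 by DESeq2 with the replicate block, 690 without the libraries numbered 3, and 28, 474 and 1533 with the block and without the numbers 1, 2 and 3. The cause was not tested. Leaving out 1 library at a time gave 0 calls each time, and a median log2 fold change of the members from 0.43 without AAV-RBM20 replicate 3 to 1.67 without AAV-GFP replicate 3, both over 1.5 times away from 1.01.

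Signs changed for 6 genes. Spp1 was at -0.26 with the replicate block, -0.40 by limma-voom, -0.35 by DESeq2 with the block, -1.42 without the numbers 3 (-1.23 with the block) and -0.34 with the block and without the numbers 1. Cd163 was at 0.15 without the numbers 3, with and without the block. Folr2 was at -0.21 without the numbers 1 (-0.12 with the block) and -0.12 without the numbers 2 (-0.0084 with the block). F13a1 was at -0.12 without the numbers 1 (-0.018 with the block) and -0.0044 without the numbers 2. Lyve1 was at 0.063 and 0.0021 with the block and without the numbers 3 and 2. Leaving out 1 library at a time gave ranges of -1.45 to 0.43 for Spp1, -0.51 to 0.23 for Cd163, -0.11 to 0.83 for Folr2, -0.17 to 0.73 for F13a1, -0.57 to 0.32 for Lyve1 and -0.72 to 1.77 for Aif1.

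Depth limits the low genes: Itgam, Aif1 and Trem2 had libraries with 3 reads. With 3 samples a group an exact test cannot go below 0.1. The replicate numbers pair libraries by correlation, not by a stated design, and the count table's own columns do not share them. In the lane labels of the study's protein blots, some GFP and RBM20 muscles carry the same number, marked R and L. The labels of the sequenced samples do not say whether any of them share an animal in this way.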

Other observations

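Several genes of recruited or activated macrophages were too low to be tested. Ly6c2, which marks inflammatory monocytes, was at 0.0492, 0.168 and 0.399 CPM with AAV-GFP and 0.147, 0 and 1.05 CPM with AAV-RBM20. Il1b was at 0.148, 0.144 and 0 CPM and 0.0733, 0.174 and 0.577 CPM. Il10 was at 0 in all libraries but AAV-RBM20 replicate 3, at 0.103 CPM. The chemokine gene Ccl7 was at 0, 0 and 0.171 CPM with AAV-GFP and 0.0367, 0.174 and 0.803 CPM with AAV-RBM20. The highest value of each of these 4 genes was in AAV-RBM20 replicate 3. Arg1 and Chil3, genes of alternatively activated macrophages, were at 0.0618 to 0.221 CPM and 0 to 0.437 CPM over the 6 libraries, with no such order.

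Among genes next to the members in sequence, the IgG receptor gene Fcgr4 had 0, 3 and 15 reads with AAV-GFP and 19, 8 and 81 reads with AAV-RBM20, and Fcgr2b had 47, 55 and 239 against 249, 161 and 303 reads. Both were higher in 3 of 3 pairs, and neither was called with or without the block (adjusted p by edgeR 0.627 and 0.641 without it).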
